A study of Mus musculus with 3 samples.

Results

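Distal ZFP410 sites that were listed in untreated brown preadipocytes and had no counterpart after induction are described here. They are the rows of the untreated ZFP410 peak list on chromosomes 1 to 19 and X that overlapped no row of the induced ZFP410 list and no row of the IgG list. Their summits lay more than 1 kb from both ends of every protein-coding gene. The rule gave 1330 sites of 3256 untreated rows, 613 inside protein-coding genes and 717 between them. They were selected on the authors' calls in the 3 lists, so their absence from the induced list is what chose them and is no result. They made up 56.5% of the 2352 untreated distal rows without an IgG overlap. The share was 52.6% among all 3077 such untreated rows on these chromosomes and 40% among the 725 near gene ends. The other 1022 of these rows overlapped an induced row and are called shared distal sites. A further 4521 induced distal rows overlapped no untreated row, 81.9% of 5517.

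The cells were Lin−CD29+CD34+Sca1+ brown preadipocytes, sorted by flow cytometry from brown fat of male wild-type C57BL/6 mice and grown in DMEM/F12 with serum. The untreated ZFP410 library came from cells without further treatment, the induced ZFP410 library from cells held for 3 days in brown adipocyte differentiation medium, and the IgG library from untreated cells. Each group held 1 library, so the lists compare 3 libraries and no difference has a replicate check or a p-value. How many mice or cultures went into a library is not given in the sources used here, no IgG control from induced cells was used here, and peak lists hold no expression with which to check the cell type. The lists held 3256 untreated, 7475 induced and 480 IgG rows with medians of 4, 7 and 4 fragments at the summit. The general background of the induced library, 0.246 fragments, was 2.24 times the 0.11 of the untreated library.

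ZFP410 is a zinc finger protein that binds DNA and is known above all as an activator of Chd4, which encodes the motor subunit of the NuRD chromatin remodeller. It does so through clusters of its motif at the promoter of that gene and upstream of it. CUT&Tag brings a transposase to a protein by way of its antibody. The enzyme inserts sequencing adapters into the DNA nearby, so fragments pile up at occupied sites and, at a lower rate, wherever chromatin is open. Sites away from gene ends include enhancers and further transcription starts within genes, and also regions where fragments collect for other reasons.

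DNA sequence was at hand for the sites that reached a transcription start. RefSeq starts of the build GRCm38.p6 (the coordinates of mm10) were available for 1291 of the 1330 sites, and 33 of these overlapped the 250 bases before a start, 2.56% (95% Wilson interval 1.83 to 3.57). Of the 33, 21 lay at a further start inside their own coding gene and 12 at the start of a non-coding gene. The sequences that follow show what these starts look like at sites with 5 to 11 fragments. Each is the stretch of the 250 bases before the start that lay under the site, written 5′ to 3′ on the strand of the gene. Capitals mark the letters of a searched motif. The genes were chosen after their values were seen, for their fragments and for the motifs.
Tsga10 (chr1:37865083-37865312, minus strand): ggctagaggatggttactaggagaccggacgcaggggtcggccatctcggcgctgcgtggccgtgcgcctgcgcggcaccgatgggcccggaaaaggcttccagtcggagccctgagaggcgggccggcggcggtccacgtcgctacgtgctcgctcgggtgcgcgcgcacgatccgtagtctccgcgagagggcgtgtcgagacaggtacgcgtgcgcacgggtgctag
Dcaf1 (chr9:106821821-106821923, plus strand): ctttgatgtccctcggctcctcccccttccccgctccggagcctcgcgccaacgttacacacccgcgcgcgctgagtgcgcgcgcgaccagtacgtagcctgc
Hlcs (chr16:94313564-94313654, minus strand): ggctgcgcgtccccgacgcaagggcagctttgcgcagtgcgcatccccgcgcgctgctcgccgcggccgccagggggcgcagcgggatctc
Tmem39a (chr16:38562733-38562813, plus strand): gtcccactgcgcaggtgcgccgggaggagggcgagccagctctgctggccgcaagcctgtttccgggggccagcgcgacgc
Synj1 (chr16:91011309-91011484, minus strand): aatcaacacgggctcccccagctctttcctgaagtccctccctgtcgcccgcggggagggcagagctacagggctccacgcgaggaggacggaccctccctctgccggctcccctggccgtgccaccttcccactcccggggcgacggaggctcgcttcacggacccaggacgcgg
Gtpbp2 (chr17:46160876-46161031, plus strand): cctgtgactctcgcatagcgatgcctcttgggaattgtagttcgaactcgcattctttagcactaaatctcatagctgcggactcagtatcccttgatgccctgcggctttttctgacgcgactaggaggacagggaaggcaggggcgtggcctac
The strongest of the 33 sites lay at the Tsga10 start with 11 fragments, over a local background of 0.991 fragments. Tsga10 encodes a coiled-coil protein of the testis and sperm tail. The site at Dcaf1, which encodes a substrate receptor of a cullin ubiquitin ligase, and that at Hlcs, the enzyme that attaches biotin to carboxylases, held 6 fragments each. Tmem39a, Synj1 and Gtpbp2 held 5 each. The sites at Tsga10, Dcaf1, Hlcs, Tmem39a, Synj1 and Gtpbp2 lay 1382, 7777, 1774, 4072, 2292 and 1740 bp from a gene end. An induced row lay 281 bp from the Synj1 site and 4870 bp or more from the others. The printed stretches of Tsga10, Dcaf1, Hlcs, Tmem39a and Synj1 were 69.9% to 78% G and C, and that of Gtpbp2 was 53.8%. Over the full windows of 300 bases (250 before to 50 after the start) the median was 63% for the 33 sites, 60% for the 52 shared distal sites over a start and 52.7% for all 32851 windows. The median number of CG pairs was 22, 19.5 and 7.

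Further stretches are shown for the motifs they hold, or for the place of the gene in a signalling pathway.
Gm33624 (chr10:119001196-119001342, minus strand): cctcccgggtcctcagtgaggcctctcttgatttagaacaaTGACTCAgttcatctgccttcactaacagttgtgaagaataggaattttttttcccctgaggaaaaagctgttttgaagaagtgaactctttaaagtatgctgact
Nfkb2 (chr19:46305445-46305635, plus strand): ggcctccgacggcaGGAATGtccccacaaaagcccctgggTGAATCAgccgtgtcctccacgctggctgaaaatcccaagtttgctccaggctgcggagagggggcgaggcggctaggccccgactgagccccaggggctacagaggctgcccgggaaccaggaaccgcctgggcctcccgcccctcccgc
Rbpj (chr5:53590236-53590395, plus strand): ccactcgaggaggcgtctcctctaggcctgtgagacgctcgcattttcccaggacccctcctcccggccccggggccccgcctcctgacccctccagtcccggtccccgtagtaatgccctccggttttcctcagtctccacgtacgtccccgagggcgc
Ccnd3 (chr17:47593431-47593466, plus strand): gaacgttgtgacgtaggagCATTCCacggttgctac
Nfkb2 encodes the NF-kappa-B subunit p100/p52, Rbpj the DNA-binding factor of Notch signalling and Ccnd3 cyclin D3, and Gm33624 is a non-coding gene. These sites held 5, 4, 3 and 6 fragments, with the nearest induced rows 300, 812, 17568 and 878454 bp away. Motifs were searched on both strands in the windows of 300 bases. The ZFP410 core letters CCCATAAT were in 0 of the 33 windows, which allows a share of up to 9.09% (3 counts of 33; the Wilson limit is 10.4%), in 1 of the 52 shared windows and in 0.572% of all windows. The overlapping letters CATCCCAT were in 0 of 33, 0 of 52 and 0.953%. The AP-1 letters TGANTCA were in 3 of 33 windows (9.09%, interval 3.14 to 23.6), in 14 of 52 shared windows (26.9%, 16.8 to 40.3) and in 7.81% of all windows. The intervals of the first pair overlap. GGAATG (TEAD) was in 4 of 33, 5 of 52 and 14.7%, and CCAAT (NF-Y) in 7, 18 and 37.4%. TTGCNNAA (C/EBP) was in 3, 6 and 10.8%, and TGACGTCA (CRE) in 1, 4 and 1.79%. Such letters describe a window and show no binding, and the sequence of the other sites was not analysed here.

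Most of the 1330 sites were weak. The authors' fold and p-value together gave whole fragments at the summit for each of them, and 593 held 3 fragments and 419 held 4, together 76.1%. Of the rest 34 held 8 or more and 15 held 10 or more, with a maximum of 49. The shared distal sites had quartiles of 4, 6 and 8 fragments in the same untreated library against 3, 4 and 4, and 311 of them held 8 or more. Sites inside and between genes were alike in this, with medians of 4 and 4 fragments and maxima of 25 and 49. The median width was 172 bp, against 234 bp for shared distal sites.

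The share of distal untreated rows without an induced counterpart fell as the number of fragments rose from 3 to 10. Of 666 rows with 3 fragments 593 had none (89%), of 616 with 4 fragments 419 (68%), of 354 with 5 fragments 172 (48.6%) and of 226 with 6 fragments 74 (32.7%). Of 345 rows with 8 or more, 34 had none (9.86%). At the top the share was uneven, with 2.33% of 43 rows at 10 fragments, 18.2% of 33 at 11 and 7.55% of 106 at 12 or more. Rows at the general background of the library gave the same order, with 89.4%, 67.6%, 48.5% and 32.3% at 3, 4, 5 and 6 fragments. At equal enrichment over background a site of 3 fragments would hold 6.72 in the induced library, and the lowest number called there at general background was 4. Since each listed row held at least 3 fragments, this arithmetic puts all 1330 sites above the lowest called number whatever the data, and so it is no result. Since the sites were chosen for a call in the untreated list, these expected numbers tend to be overestimates, and how many fragments the induced library held at these places was not analysed here.

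**Figure D1:**
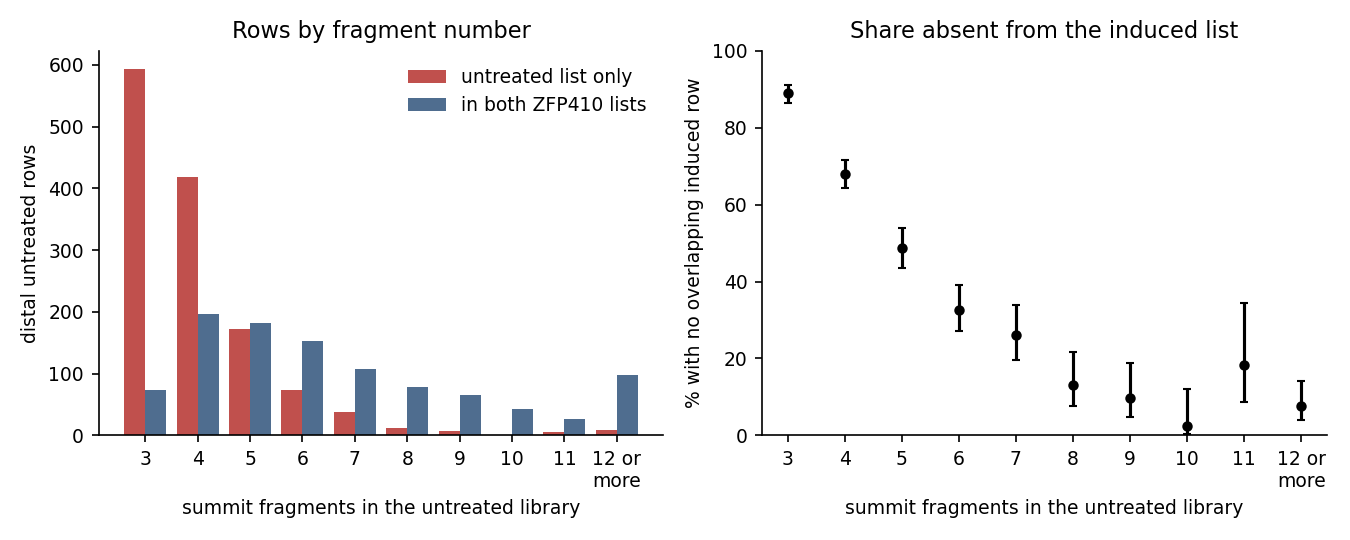
Left, distal untreated rows by fragments at the summit, in the untreated list only or overlapping an induced row. Right, the share with no overlapping induced row, with 95% Wilson intervals that cover counting error only. The share falls from 89% of rows with 3 fragments to 13.2% of rows with 8.

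The sites with most fragments inside genes were at Cdh6, Serpinf1 and Cwc25. The Cdh6 site (chr15:13046898-13047466, in a cadherin gene on the minus strand) held 25 fragments, but over a local background of 7.88, which is 71.7 times the general one. The Cwc25 site (chr11:97751826-97752176, in a gene of the spliceosome) held 15 over 1.9. The Serpinf1 site (chr11:75419281-75419707) held 15 over only 0.2 and had the highest authors' fold of the 1330, 13.3. It lay 3.21 kb from the start side of the gene, which encodes the secreted serpin PEDF, an inhibitor of vessel growth. The nearest induced row was 42.8 kb away.

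The other named sites inside genes held 8 to 13 fragments. Ano6, a calcium-activated lipid scramblase, held 13 fragments and Dst, a linker of cytoskeletal filaments, held 11 (chr1:34127693-34128005). Plce1, a phospholipase C, held 10 (chr19:38610878-38611107), and its nearest induced row was 1.25 kb away. Pcca, a subunit of propionyl-CoA carboxylase, Cubn, an endocytic receptor, and Fbxo31, a ubiquitin ligase subunit, held 9 each. Serpinb6b, an intracellular serpin, and Tbp, the TATA-binding protein, held 8 each. Dst, Plce1, Pcca, Cubn, Serpinb6b and Tbp had local backgrounds at or within 1.07 times the general one, while Ano6 had 5.6 times and Fbxo31 2.29 times.

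Between genes the highest number, 49 fragments, was 7.28 kb beyond the end of Mid1 on the X chromosome (chrX:169998025-169998317). Mid1 encodes a microtubule-bound ubiquitin ligase and lies at the edge of the pseudoautosomal region. The local background there was 18 fragments, 164 times the general one, so the authors' fold was only 2.63, the lowest of the 1330. Mid1 also had an induced row 0.649 kb away, and 3 further sites of 5, 4 and 5 fragments lay within 10 kb of each other near it. Among sites at the general background the highest was 20.1 kb from the end of Tnfsf11 (chr14:78256870-78257505), with 12 fragments and a width of 636 bp. Tnfsf11 encodes the cytokine RANKL, and the nearest induced row was 728 kb away.

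The next sites between genes held 9 to 12 fragments. A site 239 kb from Cryba4, a lens crystallin gene, and one 4.63 kb from Mcc, a gene found mutated in colorectal cancer, held 11 each at general background. The nearest induced rows lay 207 and 580 kb from them. Sites 27.9 kb from Trim52 and 3.73 kb from Sfi1 had 12 each, and those 42.3 kb from Atp2b4, a calcium pump of the plasma membrane, and 34.8 kb from Frmd8 had 11 each, all over local backgrounds of 0.488 to 1.08. In this order their nearest induced rows lay 110, 11.7, 9.62 and 0.555 kb away. Sites of 9 fragments lay 36.7 kb from Fshb, the beta subunit of follicle-stimulating hormone, 6.44 kb from Baiap2, an adaptor of actin regulation, 1.09 kb from Bhlhe40 and 149 kb from Id2. The nearest induced rows of these were 90, 9.79, 0.057 and 0.496 kb away. In all 12 of the 1330 sites had a local background over 5 times the general one, and 8 of these were among the 15 with 10 or more fragments.

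**Figure D2:**
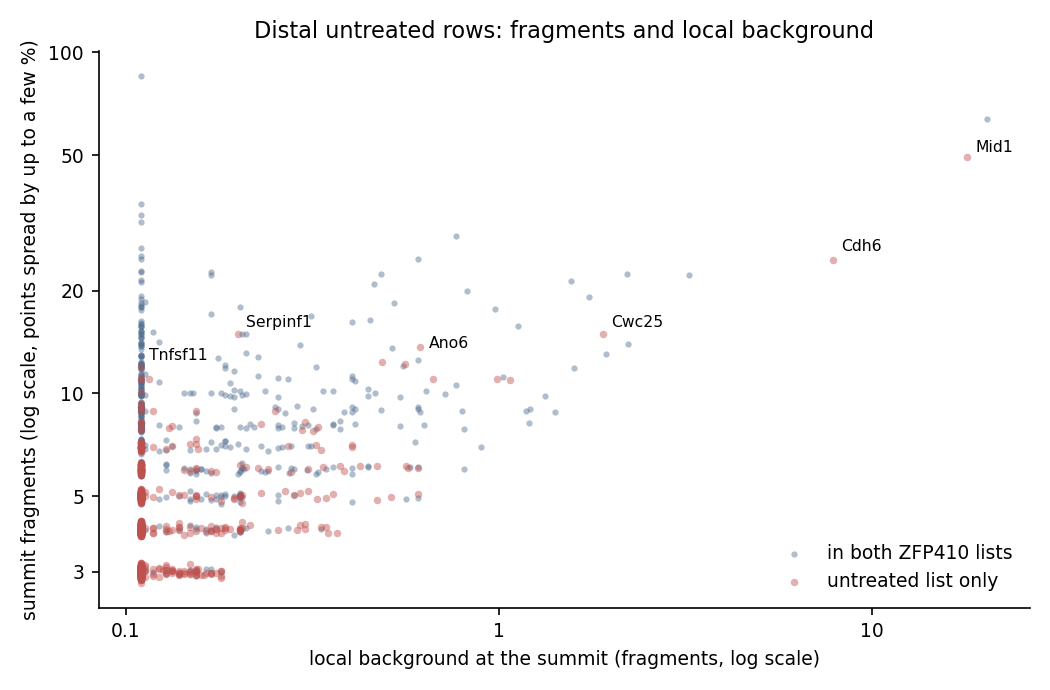
Fragments at the summit against the local background, both on log axes, for distal untreated rows in the untreated list only and in both ZFP410 lists. Mid1 with 49 fragments over 18 and Cdh6 with 25 over 7.88 lie far to the right, while Serpinf1 has 15 over 0.2 and Tnfsf11 12 over 0.11.

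The local background was low at most sites. It equalled the general background of the library at 85.9% of them (interval 83.9 to 87.6), against 75.8% of shared (73.1 to 78.4) and 70.7% of induced-only distal rows (69.3 to 72) in their own libraries. It exceeded 2 times the general value at 52 sites, 3.91% (2.99 to 5.09), against 11.4% of shared ones (9.55 to 13.4). The intervals do not overlap. A raised background demands more fragments for a call, so fragment number and background move together along these groups, and their part in the difference was not tested.

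Some sites lay beside an induced row without touching it. The gap to the nearest induced row had quartiles of 18.6, 78.3 and 243 kb, and it was 500 bp or less at 65 sites (4.89%). The 9-fragment site near Bhlhe40 (chr6:108659405-108659718), a gene of a transcriptional repressor linked to the clock, lay 57 bp from an induced row of 16 fragments. That row also overlapped another untreated row. The 9-fragment site whose nearest gene, 149 kb away, was Id2, an inhibitor of helix-loop-helix factors (chr12:25244719-25244958), lay 496 bp from an induced row of 5 fragments. Mafk, a small Maf factor gene, and Timp2, an inhibitor of matrix metalloproteinases, held 6 fragments each, 27 and 51 bp from induced rows of 6 and 9.

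Sites of 5 fragments inside the non-coding gene Wincr1 (80 kb from Mtap), 283 kb from Efcab1 and 15.7 kb from an end of Synpo lay 9 to 27 bp from induced rows of 5 to 7. In 49 of the 65 cases the neighbouring induced row overlapped no untreated row, so the lists held an adjacent pair, and in 16 it overlapped another untreated row. Over the 65 the medians were 4 untreated fragments at the site and 7 in the induced row. The limits that set these sites apart are narrow. The gap was 9 bp at the site in Wincr1 and 14 bp at Sh3d19 and Zmynd8, while shared distal sites at Wasf1 and Fth1 overlapped an induced row by 4 bp and one at Sec24a by 9 bp. At the 1 kb limit, sites of 7, 3 and 4 fragments at Klf10, Gas1 and Zer1 lay 1003, 1005 and 1010 bp from a gene end. Rows of 3, 3 and 4 fragments at Trim69, Pygo1 and Cnga4 fell outside the rule at 995, 991 and 979 bp.

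**Figure D3:**
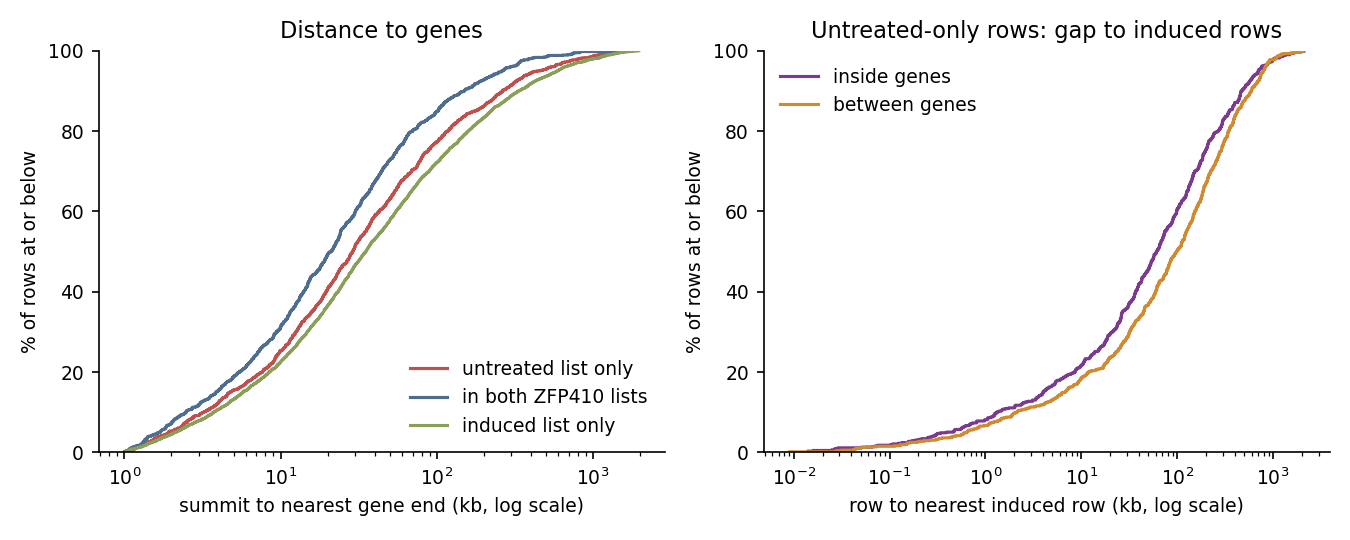
Cumulative share of rows by distance. Left, summit to the nearest end of a protein-coding gene for distal rows in the untreated list only, in both and in the induced list only, where the rule starts all curves at 1 kb. Right, gap from each untreated-only site to the nearest induced row, with medians of 60.9 kb inside genes and 98.1 kb between genes; the axes are logarithmic.

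Chd4 itself (chr6:125095980-125130591, plus strand) held a pair of the sites. They lay within the gene, 3228 and 4118 bp past its start, at chr6:125099176-125099367 with 4 fragments and chr6:125100056-125100254 with 3, both at general background. The 11 other untreated rows from 13897 bp before to 869 bp after the start each overlapped an induced row. The strongest of those 11, 6972 bp before the start, held 35 fragments, and the induced row over it had an authors' fold of 183, the highest of the neighbourhood. A row of 52 fragments spanned the start in the induced list. Next to it the induced row at chr6:125097735-125098927, with 11 fragments, overlapped no untreated row and ended 249 bp before the first of the pair. The edge of the listed rows inside Chd4 lay farther from the start in the untreated than in the induced list, by sites of 3 and 4 fragments.

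**Figure D4:**
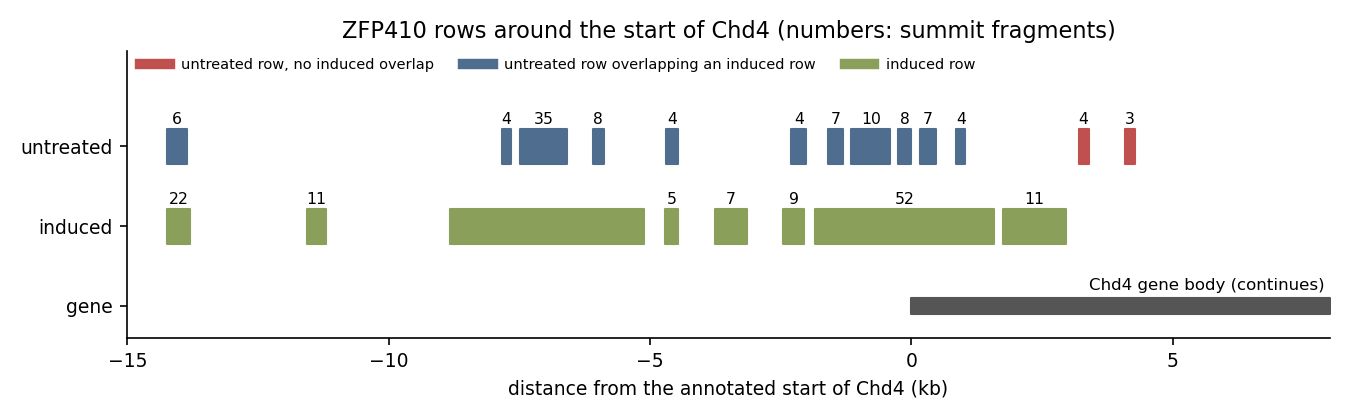
ZFP410 rows by distance from the annotated start of Chd4 in kb, untreated above and induced below, with fragments at the summit over each row. The untreated-only pair of 4 and 3 fragments lies to the right of the last induced row, and all other untreated rows drawn overlap an induced row; the wide induced row without a number had no whole fragment number recovered.

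Sites of the set were scattered over the genome. In all 563 of 21627 protein-coding genes held at least 1 (2.6%), 515 of them a single site and 43 a pair, and 5 held 3 or more. These genes were long, with a median of 98 kb against 17.3 kb for all coding genes and 80.7 kb for the 445 genes that held a shared distal site. Both kinds of site were in 77 genes, 13.7% of the 563 and 17.3% of the 445. Dst held 4 sites of 11, 6, 4 and 3 fragments over 401 kb, with no shared distal site. Dlg2, a scaffold of the synapse, held 4 of 3 fragments each over 1973 kb. Lrp1b, a large endocytic receptor of 2058 kb, and Zbtb20, a zinc finger repressor of 759 kb, held 3 each with up to 6 fragments. Gm21119 held 4 within 32.3 kb.

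Close neighbours were few, with 75 sites (5.64%) in 35 chains of summits at most 10 kb apart. The densest stretch was on chromosome 8 between 20000001 and 21000000, a region of beta-defensin genes, with 22 sites of 3 to 7 fragments. Gm21119 lies in it. The same stretch held 11 shared distal rows, 99 induced rows and 4 IgG rows, and no other stretch of 1 Mb held more than 6 sites. As background, beta-defensin genes are a family of related copies, so counts there are uncertain, and mapping of fragments to single copies was not tested. Chromosomes ranged from 44.7% untreated-only among their distal rows on chromosome 11 (interval 37.1 to 52.7) to 69.8% on the X (54.9 to 81.4). On the X 30 of 43 rows had no induced counterpart. The 56.5% of all distal rows lay within the X interval and above that of chromosome 11. Both are extremes picked from all chromosomes, so a single interval that misses this share carries little weight, and no test was made.

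Gene lists for fat cells, chromatin and signalling were read for sites in the body of their genes. Actin and focal adhesion genes had the highest count, 9 of 43 (20.9%), and preadipocyte and extracellular matrix genes 5 of 43 (11.6%), against 2.6% of all coding genes. Their medians of length were 104 and 39.9 kb against 17.3 kb. Per Mb of gene body these lists had 1.95 and 1.9 sites against 0.591 over all coding genes. Shared distal sites gave 1.3 and 1.9 per Mb in the same lists against 0.487, and induced-only ones 4.87 and 6.95 against 1.82, so all 3 kinds of site stood above the average there. NuRD and housekeeping genes, with only 0.617 and 0.349 Mb of gene body in all, had higher densities still, given with their counts. No test was made of any list.

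Within the adhesion list Lpp, a LIM protein of focal adhesions, had the most fragments at 7 (chr16:24933828-24934012). Mrtfb, a coactivator of serum response factor that is regulated by actin, held sites of 6 and 3, and its nearest induced row was 452 kb away. Itgav, the integrin alpha-V gene, held 1 site of 5. Ptk2, the focal adhesion kinase gene, held sites of 4 and 4. Src, Pdlim5, Myh10 and Cald1 held 3 each. In the matrix list Serpinf1 led with the 15 fragments given above. Fbn1, the microfibril protein fibrillin-1, held sites of 6 and 5, and Loxl2, a collagen cross-linking oxidase, held 6. The collagen genes Col5a1 and Col3a1 held 4 and 3.

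Of 45 adipogenic and lipid storage genes 2 held a site (4.44%, against 2.6% of all coding genes), Igf1r with 4 fragments and Stat5b with 3. With sites up to 50 kb from a gene counted the number was 8 (17.8%, against 8.98%), including Rxra with 4 fragments and Lpl and Fasn with 3 each. Of 34 brown thermogenic genes 2 held a site (5.88%) and 4 had one within 50 kb (11.8%). Per Mb of gene body the adipogenic list had 0.944 sites and the thermogenic list 0.564, against 0.591 over all coding genes. Their median lengths were 21.7 and 31 kb against 17.3 kb. Mecom held 4 fragments and Prdm16, a determinant of brown fat identity, held 3. Dio2 and Zbtb16 had sites of 4 and 5 fragments within 50 kb.

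Against the 2.6% of all coding genes, counts of this size say little about lists of 30 to 47 genes. TGF-beta and BMP genes had 2 of 30 (6.67%), Ltbp2, a latent TGF-beta binding protein, with 8 fragments and the inhibitory Smad6 with 4. Prostaglandin and cAMP genes had 3 of 47 (6.38%), the coactivator Ep300 with 5 and Pde4d and Rapgef4 with 3 each. Per Mb of gene body the TGF-beta list had 0.773 sites and the prostaglandin list 0.473, against 0.591 over all coding genes. Their median lengths were 69 and 71.4 kb against 17.3 kb. Hpgd, which degrades prostaglandins, had a site of 4 within 50 kb, and Gnai2, an inhibitory G protein, one of 7 that lay 1145 bp from the gene. Within 50 kb the prostaglandin list had 6 of 47 genes (12.8%, against 8.98% of all coding genes). Wnt genes had 0 of 34, also within 50 kb, and markers of endothelial, immune, muscle and other cell types 0 of 30.

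The other lists held 1 to 4 genes with a site, to be read against 2.6% of all coding genes and 0.591 sites per Mb over them. The m6A list had 1 of 21 (4.76%), the methyltransferase subunit Mettl14 with 3 fragments, and the 11-fragment site near Mcc lay within 50 kb of Ythdc2, a reader of m6A. Within 50 kb the m6A count was 3 of 21 (14.3%, against 8.98% of all coding genes). NuRD genes had 2 of 15 (13.3%), Chd4 as above and Mbd2, a reader of methylated DNA, with 4 and 3. That came to 6.48 sites per Mb, from 4 sites in 0.617 Mb. Shared distal and induced-only sites gave 0 and 3.24 per Mb there. Only sites in gene bodies and more than 1 kb from gene ends enter these densities. They therefore leave out the untreated rows around the Chd4 start, described above, that overlapped induced rows. Axon guidance and neuronal adhesion genes, with a median length of 326 kb, had 4 of 43 (9.3%), among them Dcc with 5 fragments. Their 0.222 sites per Mb lay below the 0.591 of all coding genes. Housekeeping genes had 2 of 28 (7.14%), Tbp with 8 and the tubulin gene Tuba1a with 7, or 5.74 sites per Mb from 2 sites in 0.349 Mb. In the same bodies shared distal and induced-only sites were denser, at 11.5 and 8.61 per Mb.

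**Figure D5:**
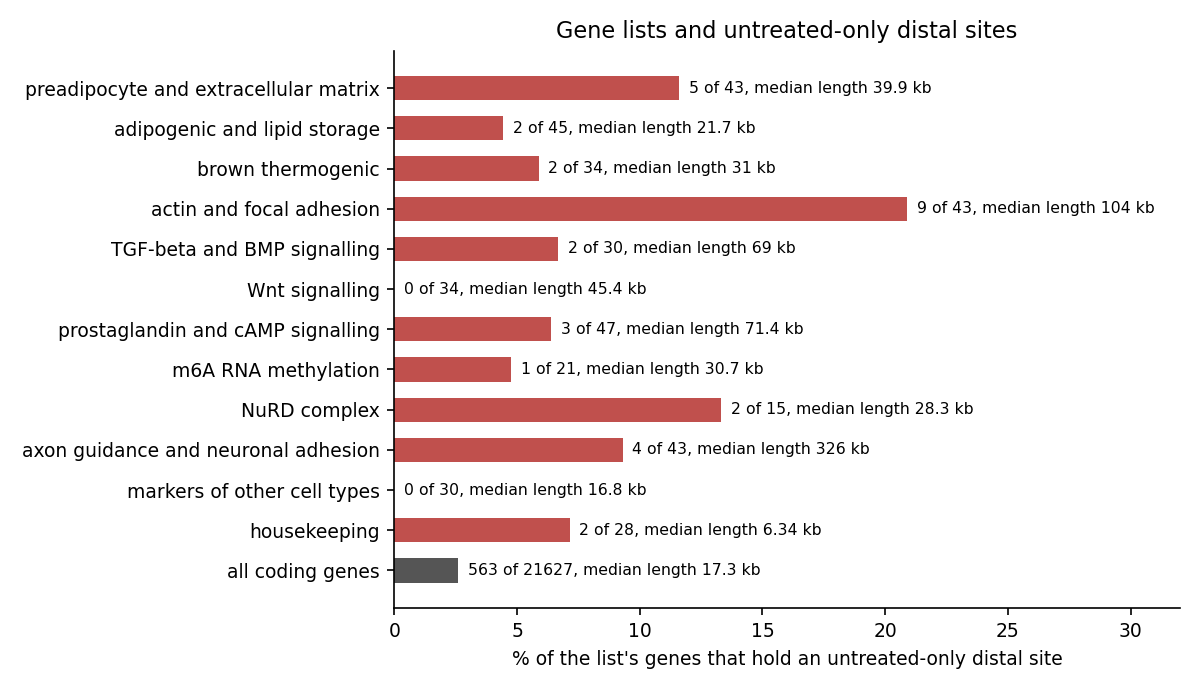
Share of the genes of each list whose body holds an untreated-only distal site, with the count and the median gene length, and all coding genes in grey. Actin and focal adhesion genes have 9 of 43, Wnt genes and markers of other cell types 0.

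The place of the sites relative to genes differed from that of shared distal sites in some measures. Inside genes lay 46.1% of them (interval 43.4 to 48.8), against 49.3% of shared (46.3 to 52.4) and 41.5% of induced-only sites (40 to 42.9), and the interval overlaps that of the shared but not that of the induced-only sites. A gene end lay within 10 kb of 25.3% (23 to 27.7), against 31.1% of shared ones (28.4 to 34), where the intervals do not overlap, and 22.4% of induced-only ones (21.2 to 23.7). The median distance was 28.9 kb against 21.1 and 35.2 kb. An annotated start lay within 1 kb of 64 of 1291 sites, 4.96% (3.9 to 6.28), against 89 of 989 shared ones, 9% (7.37 to 10.9). The start side was the nearest for 52% of sites between genes (47.8 to 56.1) and for 57.6% of shared ones (52.8 to 62.3), intervals that overlap. Non-coding genes held 123 of the 717 sites between coding genes (17.2%) and 122 of 518 shared ones (23.6%).

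Since shared sites held more fragments, the comparison was repeated among rows at general background with the same number. With 4 fragments, 21.9% of 370 untreated-only sites (18 to 26.4) and 34.5% of 177 shared ones (27.9 to 41.7) had a gene end within 10 kb, and the intervals did not overlap. With 3 fragments the shares were 21.9% of 538 (18.6 to 25.6) and 32.8% of 64 (22.6 to 45), and with 5 they were 24.8% of 141 (18.4 to 32.6) and 34% of 150 (26.9 to 41.9). With 6 fragments the order turned, 38.9% of 54 (27 to 52.2) and 29.2% of 113 (21.6 to 38.2). The intervals overlapped at 3, 5 and 6 fragments. A start within 1 kb was found for 4.41% of untreated-only and 5% of shared sites with 3 fragments, 5.54% and 10.9% with 4, 6.67% and 9.93% with 5, and 5.56% and 5.45% with 6. The intervals of this measure overlapped at each of the 4 numbers.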

How the data were processed

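CUT&Tag peak lists of 3 libraries were used, 1 for each of untreated ZFP410, induced ZFP410 and untreated IgG, grouped by the sample labels. The submitters' processing notes name Bowtie2 2.2.6, Picard and MACS2 2.1.1 and the build mm10. The handling of duplicates and the control of the peak caller are not given in the sources. The deposited lists give the authors' score, the fold (a ratio) at the summit, the −log10 p-value and the −log10 q-value, and the summit position of each peak. A q threshold of 0.1 stands in the names of the deposited peaks. Fold and −log10 values were used only within their own list.

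MACS2 adds 1 to fragments and background for the fold and takes the p-value from a Poisson tail. Both values gave whole summit fragments and the local background for 3255 of 3256, 7474 of 7475 and 480 of 480 rows, within 0.001 in −log10 p. The step was tested on data simulated with the same formulas, which can check the inversion but not the formulas. The lowest local background of a list is called its general background. Total depth is not in the lists. Overlap means at least 1 bp. Shares have 95% Wilson intervals, which cover counting error only. PCR reads without molecular identifiers are not independent molecules.

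Genes came from RefSeq GRCm38.p6 (21627 coding genes on the placed chromosomes used), with strand and starts from a table of 32851 start windows. Exons, introns and UTRs were not analysed here. Python 3.11.15, numpy 2.4.6, scipy 1.17.1 and pandas 2.3.3 were used.

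The sites and the 12 gene lists were chosen with earlier results of these data known. Named sites were the 12 inside and 12 between genes with most fragments (ties by −log10 q), the sites in Chd4, genes with 3 or more sites, up to 4 genes of each list, sites next to an induced row and sites at the limits of the rule. A predicted gene was named only where no other gene hosted the site. Other genes, including those whose starts are printed, Src, Pdlim5, Myh10, Cald1, Col3a1 and the genes within 50 kb, were named after their values were seen. Some genes that the rule takes are not reported here. Alternatives changed the gene-end distance, the overlap, the thresholds, the background, the gene set and the chain length.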

Additional observations from a re-analysis of the deposited data

How the results depend on the processing

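Of 49 alternatives tried, 33 left a count within 1.5 times its value, a share within its 95% interval or a median of fragments unchanged. This tally counts the same settings for linked measures, and the expected count under a ratio of depths of 2 was fixed by arithmetic. It is therefore no measure of robustness. The number of sites ranged from 1124 to 1754 over the gene-end distances, overlap rules, the IgG rule and the restriction to general background. It fell to 122 with untreated rows at a −log10 q of at least 5 (49.2% inside genes, median 7 fragments), to 295 at a fold of at least 5 (49.5%, 5 fragments) and to 157 with both ZFP410 lists at that q (53.5%, 7 fragments). Thresholds on strength remove rows of few fragments by construction. The share inside genes was 43% with a gene-end window of 5 kb and 54.7% with all genes of the table, which adds non-coding gene bodies. With the lowest called induced number set 5 fragments higher, the sites expected to reach it at equal enrichment were 318 in place of 1330, a count that their untreated fragments alone fix. Chains of summits held 48 sites at 5 kb and 161 at 50 kb, against 75, and 98 and 351 sites had an induced row within 1 and 20 kb, against 196 within 5 kb. A ratio of depths of 2 in place of 2.24, the list counts without sites next to an induced row or off the general background, and the inside share without the dense stretch were chosen after seeing the data and moved no count by over 1.5 times.

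No paired analysis was possible because each group held 1 library, and leaving out a library leaves a group empty. The ratio of depths from the grid of local backgrounds was not run, since more than 1 step matched the values, and the motif search over all sites was not run. With 3 or 4 fragments at 76.1% of the sites, these low untreated counts limit what their missing induced counterparts can show.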
